A study of Anas platyrhynchos with 11 samples.

Results

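Two-pore-domain (K2P) potassium channels were examined through the 8 genes KCNK1, KCNK2, KCNK5, KCNK9, KCNK10, KCNK12, KCNK13 and KCNK18, chosen by gene name. All 8 were among the 16823 genes of the deposited table, and KCNK15 was the only other KCNK gene in it. A Meissner corpuscle is an end organ of touch, built of lamellar cells around a sensory axon. In the duck (Anas platyrhynchos) they were drawn by pipette from bill skin, 2 to 10 per sample, and set beside neighbouring bill skin without corpuscles, in 5 corpuscle and 6 skin libraries of bulk RNA. No genotype, treatment or age was given in the labels for either tissue, and both came from 3 skin isolations that the labels do not tie to libraries, so a p-value here speaks only of the spread among libraries. A low-input kit was used for every corpuscle library and another kit, for messenger RNA, for every skin library, and the effects of kit and tissue cannot be told apart. Corpuscle RNA was listed at 63 to 323 pg per µl with RNA integrity numbers of 6.1 to 8.0, without values for single libraries. None were listed for skin.

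K2P channels carry the leak of potassium ions that sets the resting potential of a cell and so how easily it fires. Each subunit holds a pair of pore loops, and subunits assemble as dimers. The TREK channels (KCNK2, KCNK10) open on membrane stretch, warmth and certain lipids, KCNK9, of the TASK group, and KCNK5 respond to extracellular pH, the THIK channels (KCNK13, KCNK12) include a halothane-inhibited channel, and TRESK (KCNK18) is activated by the phosphatase calcineurin. These properties were worked out mainly in mammals. Several K2P channels are known from mammalian sensory neurons.

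Total counts ran from 5766279 to 11886808 in corpuscles and from 13263776 to 20925841 in skin. Levels are given as CPM, reads scaled to library size with TMM factors, where 3 reads equal 0.266 to 0.476 CPM in corpuscle libraries and 0.135 to 0.227 CPM in skin libraries. Corpuscles 4 and 5 stood apart from corpuscles 1 to 3 on the second principal component (13.8% of variance), with scores of -121 and -25.9 against 48.7 to 52.6. Summed markers of sensory axons came to 413 to 1807 CPM in corpuscles, against 151 to 183 CPM in skin (13 of 14 listed genes in the table). Those of Merkel cells came to 14630 to 79590 CPM in corpuscles, against 1232 to 2503 CPM in skin (9 of 12). In every corpuscle UCHL1 was the largest part of the axon sum and CHGB of the Merkel sum. SNAP25 (36.5 to 113.5 CPM, against 1.19 to 3.19 in skin) and KRT20 (484 to 9157, against 84.6 to 197.5) were higher too. PRPH (0.799 to 6.18, against 4.49 to 8.16) and PIEZO2 (208 to 408, against 263 to 441) overlapped between tissues. So did most other genes of the axon list, namely NEFL, NEFM, NEFH, NTRK2, RET, MAP1B and TUBB3. NEFL ran from 1.26 to 51.4 CPM in corpuscles, against 5.49 to 9.40 CPM in skin. Of the Merkel list ATOH1 (7.61 to 66.9, against 4.19 to 12.5) and SOX2 overlapped too. Schwann cell markers (9 of 13) summed to 997 to 2017 CPM in corpuscles and 1265 to 1724 CPM in skin, with S100B at 0 reads in every library. Summed endothelial (10 of 10), keratinocyte (5 of 10) and muscle and pericyte (7 of 8) markers were lower in every corpuscle library than in any skin library. The sums were 79.0 to 142, 30.4 to 57.4 and 160 to 365 CPM in corpuscles, against 1214 to 1614, 162 to 473 and 689 to 1057 CPM in skin. Single genes did not all follow. CDH1 (3.96 to 22.4 CPM, against 8.42 to 21.8) and PDGFRB (106 to 295, against 205 to 347) overlapped between tissues, as did ESAM, CLDN5 and DES.

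Of the 8 genes, KCNK2, KCNK10, KCNK9 and KCNK13 were higher in corpuscles and 0 were lower. Of the 6 genes tested KCNK10 had the largest fold change, 13.4-fold, and KCNK2 had the highest mean level per gene length in corpuscles, which rested on corpuscles 4 and 5. KCNK1 and KCNK5 did not pass the test. KCNK12 and KCNK18 had too few reads for the filter on low counts and were read separately. In edgeR's quasi-likelihood test with Benjamini-Hochberg adjustment over 14638 genes, 56.4% of all genes passed at 0.05 and 33.0% were higher in corpuscles, so 4 higher of 6 tested is a count over few genes in a comparison where most genes differed. Libraries of the tissues did not overlap for KCNK2, KCNK9 and KCNK10, 3 of the 6, against 41.3% of all genes tested (22.3% with corpuscles above skin). All 6 tested genes reached the filter's minimum of 0.754 CPM in all 6 skin libraries, so none was tested only through its level in corpuscles. In bulk samples a difference in the number of cells of a type and in RNA per cell cannot be told apart.

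**Figure D1:**
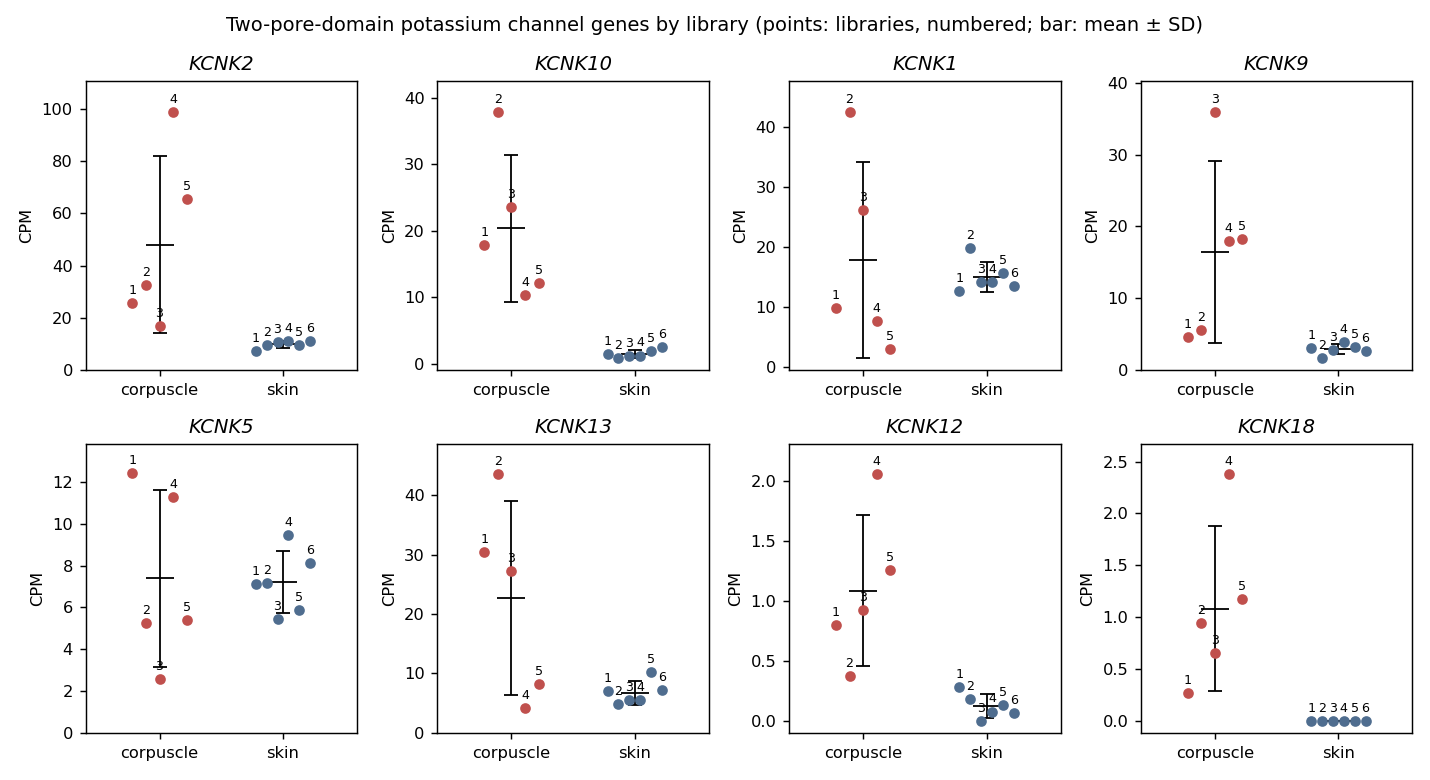
Level of each of the 8 genes in CPM (y axis, linear, own scale per gene) in corpuscle and skin libraries; points are libraries with their number, and bars give mean ± SD (n = 5 and 6). Corpuscle points of KCNK2, KCNK10, KCNK9, KCNK12 and KCNK18 all lie above the skin points, while those of KCNK1, KCNK5 and KCNK13 overlap them.

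Both TREK genes were higher in corpuscles. KCNK2 (TREK-1) was at 25.7, 32.6, 17.1, 98.8 and 65.5 CPM in corpuscles 1 to 5, against 7.46 to 11.1 CPM in skin (median 10.3). Every corpuscle library exceeded every skin library, and corpuscles 4 and 5 were the highest. The log2 fold change was 2.27 ± 0.42 (SE, adjusted p = 0.00028), and it was 1.34 (adjusted p = 0.000974) without corpuscles 4 and 5. KCNK10 (TREK-2) was at 17.8, 37.9, 23.6, 10.3 and 12.1 CPM in corpuscles 1 to 5, against 0.855 to 2.54 CPM in skin (median 1.34). The tissues did not overlap here either, and corpuscles 4 and 5 were the lowest of the corpuscles. Its log2 fold change was 3.75 ± 0.45 (adjusted p = 6.51e-06), and the lower end of the 95% interval was 2.80.

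The balance of the TREK pair was read within each library, where library scaling has no part. Corpuscle reads of KCNK2 and KCNK10 were 290 and 201 in corpuscle 1, 346 and 402 in corpuscle 2, 184 and 254 in corpuscle 3, 623 and 65 in corpuscle 4, and 727 and 134 in corpuscle 5. Corpuscles 2 and 3 thus had more reads of KCNK10 than of KCNK2, whereas the ratio of KCNK2 to KCNK10 was 9.46 in corpuscle 4 and 5.39 in corpuscle 5 (1 read added to each count). In skin that ratio ran from 4.28 to 10.6. The log2 ratio averaged 1.10 ± 1.65 in corpuscles (SD, n = 5) and 2.74 ± 0.56 in skin (n = 6), a difference of -1.64 that did not pass a two-sided exact permutation test (p = 0.0823, adjusted p = 0.165 over the 2 paralogue pairs compared). With 5 against 6 libraries the smallest p is 0.00433. Without corpuscles 4 and 5 the difference was -2.79 (exact permutation test, adjusted p = 0.0476). These were the corpuscles of highest ratio, so leaving them out had to widen the difference. The unadjusted p was then the smallest that so few libraries allow, so this test decides nothing.

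**Figure D2:**
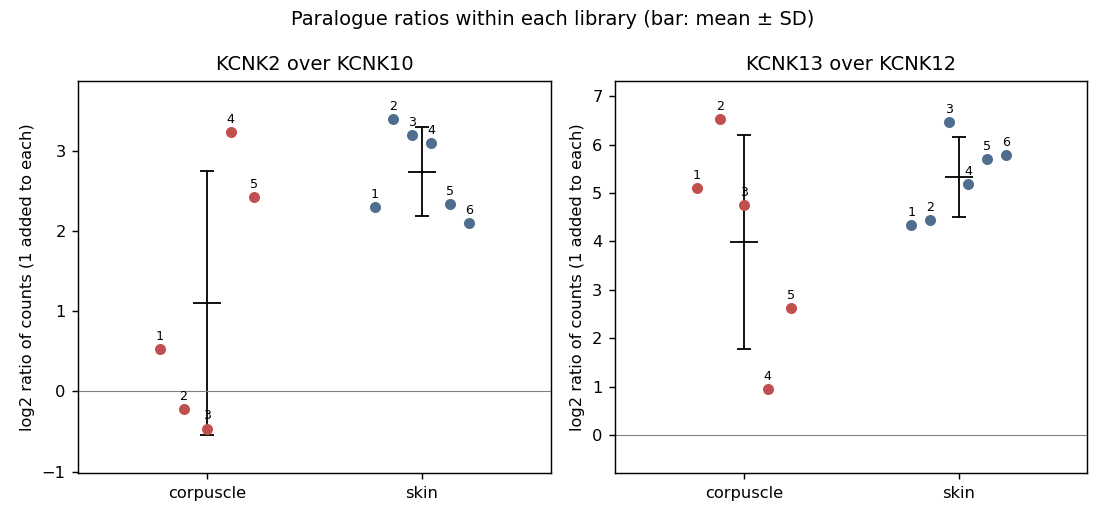
The log2 ratio of read counts of KCNK2 to KCNK10 (left) and of KCNK13 to KCNK12 (right), with 1 read added to each count, for each library (points, numbered) of corpuscle and skin; bars give mean ± SD (n = 5 and 6). In both panels the corpuscle libraries spread wider than the skin libraries, and corpuscles 4 and 5 sit apart from corpuscles 1 to 3.

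The acid-sensitive TASK channel gene KCNK9 (TASK-3) was higher in corpuscles. It was at 4.62, 5.65, 35.9, 17.9 and 18.2 CPM in corpuscles 1 to 5, against 1.76 to 3.94 CPM in skin (median 2.91). The tissues did not overlap, but corpuscle 1 stood only just above the highest skin library, and corpuscle 3 was the highest. The log2 fold change was 2.50 ± 0.50 (adjusted p = 0.000569), and without corpuscle 3 it was 1.99. KCNK5, the alkaline-activated channel of epithelia in mammals, was at 12.4, 5.27, 2.60, 11.3 and 5.40 CPM in corpuscles 1 to 5, against 5.43 to 9.48 CPM in skin (median 7.14). Corpuscle values lay on both sides of the skin range. Its log2 fold change was 0.03 with a 95% interval of -0.83 to 0.90 (adjusted p = 0.948), and its sign changed under 9 of 23 alternatives.

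KCNK15 (TASK-5 in humans, for which no channel current is known) was not among the 8 genes but belongs to the TASK group. It was at 1.15, 1.51, 1.58, 5.55 and 3.33 CPM in corpuscles 1 to 5, against 0.562 to 1.89 CPM in skin (median 0.891). Corpuscles 1 to 3 fell within the skin range and corpuscles 4 and 5 above it. The log2 fold change was 1.26 ± 0.49 (adjusted p = 0.0402), but 0.39 without corpuscles 4 and 5 (adjusted p = 0.456), and the call held in 9 of 21 alternatives.

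KCNK1 (TWIK-1), a weakly conducting channel, did not differ beyond the spread of the libraries. It was at 9.76, 42.5, 26.2, 7.61 and 2.97 CPM in corpuscles 1 to 5, against 12.7 to 19.8 CPM in skin (median 14.2). Corpuscles 2 and 3 lay above every skin library, and corpuscles 1, 4 and 5 lay below every one. The log2 fold change was 0.25 with a 95% interval of -0.86 to 1.36 (adjusted p = 0.703), and it was -0.37 without corpuscle 2.

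The THIK gene KCNK13 (THIK-1), known in mammals for the resting potassium conductance of microglia, was higher in corpuscles on average but not in every library. It was at 30.4, 43.5, 27.3, 4.12 and 8.20 CPM in corpuscles 1 to 5, against 4.86 to 10.3 CPM in skin (median 6.27). Corpuscles 1 to 3 exceeded every skin library, corpuscle 4 was below all of them and corpuscle 5 was within their range. The log2 fold change was 1.76 ± 0.50 (adjusted p = 0.00773). It was 2.33 (adjusted p = 3.7e-05) without corpuscles 4 and 5, and it did not pass in a test against a fold of 2 (adjusted p = 0.0702).

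KCNK12 (THIK-2), whose mammalian product is largely kept in the endoplasmic reticulum, had 9, 4, 10, 13 and 14 reads in corpuscles 1 to 5, against 4, 4, 0, 1, 2 and 1 reads in skin 1 to 6. Scaled to library size these were 0.377 to 2.06 CPM in corpuscles, against 0 to 0.279 CPM in skin, without overlap, and the means differed by 8.89-fold. KCNK18 (TRESK), a channel of mammalian sensory neurons, had 3, 10, 7, 15 and 13 reads in corpuscles 1 to 5 and 0 reads in every skin library. With 0 reads, skin allows a level of up to 0.0312 CPM over the group (3 reads over all 6 libraries). The corpuscle mean of KCNK18, 1.08 ± 0.80 CPM (SD, n = 5), was 34.7-fold that bound. This is no lower limit on the difference, since corpuscle 1 was at 0.266 CPM. The authors' deposited table, which has no such filter, gives false discovery rates of 0.00155 for KCNK12 and 0.000204 for KCNK18. The bound of 0.0312 CPM for KCNK18 in skin covers counting error only.

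The THIK pair was compared within libraries in the same way. The log2 ratio of KCNK13 to KCNK12 averaged 3.99 ± 2.20 in corpuscles (SD, n = 5) and 5.33 ± 0.83 in skin (n = 6), and the difference of -1.34 did not pass (two-sided exact permutation test, p = 0.221, adjusted p = 0.221). Corpuscles 4 and 5 had the lowest log2 ratios, 0.95 and 2.62, below every skin library. Without them the difference was 0.13. KCNK12 had only 0 to 4 reads in each skin library, so the read added to each count bears on this ratio. With 0.5 added in place of 1 the difference was -1.66, whereas that of the TREK pair moved only from -1.64 to -1.66.

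Levels of different genes were compared per gene length, in the authors' FPKM. In corpuscles the order by mean FPKM was KCNK2 (9.28 ± 6.40), KCNK13 (5.34 ± 3.85), KCNK1 (3.88 ± 3.56), KCNK10 (2.13 ± 1.17), KCNK5 (1.20 ± 0.69), KCNK15 (1.08 ± 0.74), KCNK9 (1.06 ± 0.82), KCNK18 (0.78 ± 0.57) and KCNK12 (0.35 ± 0.20) (SD, n = 5). No neighbours in that order were apart in their ranges, and KCNK2 exceeded KCNK13 in only 2 of 5 corpuscle libraries. In skin the order was KCNK1 (3.43 ± 0.59), KCNK2 (2.04 ± 0.29), KCNK13 (1.65 ± 0.48), KCNK5 (1.23 ± 0.25), KCNK15 (0.47 ± 0.21), KCNK9 (0.20 ± 0.05), KCNK10 (0.17 ± 0.07) and KCNK12 (0.04 ± 0.03) (SD, n = 6), with KCNK18 at 0. There KCNK1 lay apart from KCNK2, and KCNK5 from KCNK15, in every library. KCNK2 stood at percentile 69.1 of all genes by FPKM in corpuscles and at 37.7 in skin, and KCNK10 at 38.5 in corpuscles and 19.5 in skin.

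Summed over the 9 KCNK genes, the level was 25.1 ± 5.68 FPKM in corpuscles (19.8 to 32.4) and 9.23 ± 0.695 FPKM in skin (8.31 to 9.97). The sums did not overlap, while the make-up of the sum varied among corpuscles. KCNK13 had the highest share in corpuscles 1, 2 and 3, at 36.7%, 31.4% and 28.9%. KCNK2 had the highest share in corpuscles 4 and 5, at 62.9% and 60.0%. KCNK1 had the highest share in all 6 skin libraries, from 31.3% to 47.5%, against 3.04% to 28.6% in corpuscles.

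**Figure D3:**
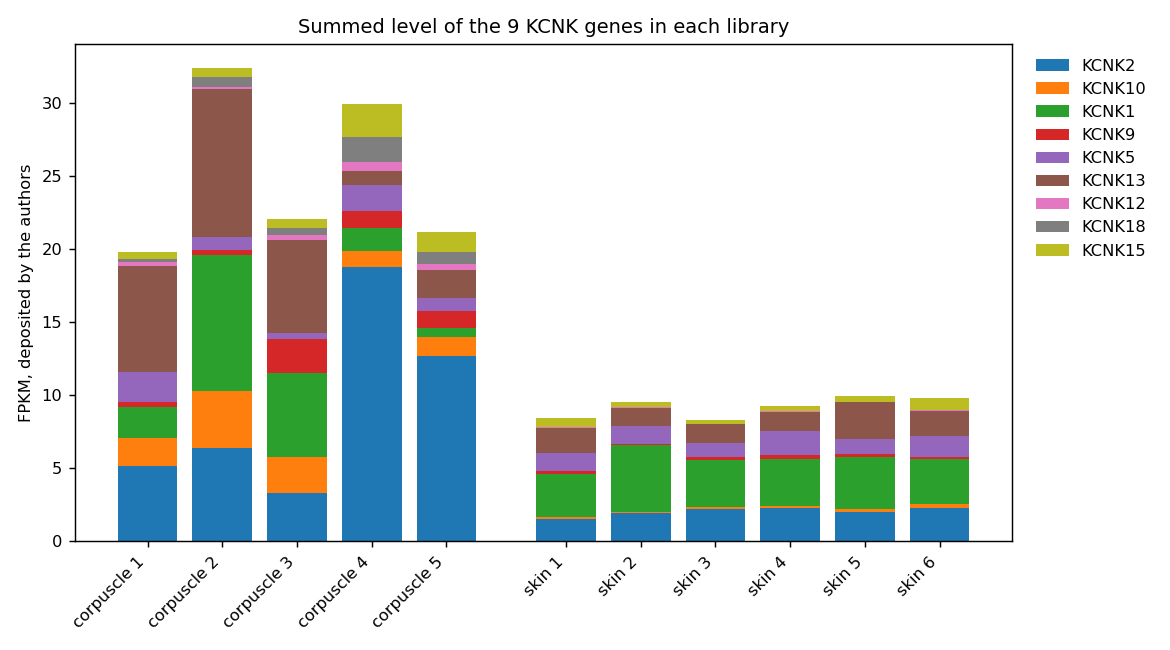
Stacked FPKM (y axis, linear from 0) of the 9 KCNK genes in each corpuscle library and each skin library. The sums are 19.8 to 32.4 FPKM in corpuscles and 8.31 to 9.97 FPKM in skin, with KCNK13 the widest band in corpuscles 1 to 3, KCNK2 in corpuscles 4 and 5 and KCNK1 in skin.

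Corpuscle libraries varied more than skin libraries in each KCNK gene with skin reads except KCNK12. The wider spread was not particular to these genes. Over the genes tested, the chi-square per degree of freedom between 2 libraries was 96.5 to 209 in corpuscles and 11.8 to 52.6 in skin. The coefficient of variation of CPM was 91.8% in corpuscles and 17.1% in skin for KCNK1, 72.0% and 29.3% for KCNK13, 70.5% and 14.0% for KCNK2, and 54.6% and 40.3% for KCNK10. For KCNK12, which had 12 skin reads in all, it was 58.1% in corpuscles and 80.6% in skin. KCNK2, KCNK12, KCNK18 and KCNK15 were highest in corpuscle 4 and above the corpuscle mean on the log2 scale in corpuscle 5 too, while KCNK1, KCNK10 and KCNK13 were below it in both. Corpuscle 4 was also the library of fewest total counts (5766279). Among corpuscles, most of the genes of unrelated organs were highest there too, such as PDE6C (17.1 CPM, against 0.942 to 3.33) and C5 (30.1 CPM, against 4.32 to 8.29). Others were not, such as MAEL (7.61 CPM, against 21.6 in corpuscle 3). The part of depth in these levels was not tested.

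Marker sums of other cell types differed between the same libraries. Axon markers summed to 604 and 413 CPM in corpuscles 4 and 5, against 1063 to 1807 CPM in corpuscles 1 to 3. Of these sums UCHL1 was 349 and 198 CPM, against 732 to 1250 CPM. Other genes of the list went the other way, namely NTRK2, RET, PRPH, NEFM and GAP43. Each was higher in corpuscles 4 and 5 than in corpuscles 1 to 3. NTRK2 was at 29.7 and 26.7 CPM against 6.59 to 14.6 CPM, and RET at 12.1 and 7.12 CPM against 2.50 to 4.14 CPM. Merkel cell markers summed to 14630 and 41000 CPM in corpuscles 4 and 5, against 44820 to 79590 CPM in corpuscles 1 to 3. Fibroblast markers (10 of 10 in the table) summed to 45830 and 41780 CPM in corpuscles 4 and 5, against 14000 to 26930 CPM in corpuscles 1 to 3. COL1A1, COL1A2 and COL3A1 together were the largest part of these sums. PDGFRA (74.2 and 134 CPM, against 102 to 210) and FBN1 (225 and 219, against 131 to 246) did not follow them. The other genes of the list were higher in corpuscles 4 and 5 than in corpuscles 1 to 3. In skin, fibroblast markers were at 49480 to 80480 CPM, where KCNK2 was at 7.46 to 11.1 CPM. The part of these markers in the variation of the KCNK genes was not tested.

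**Figure D4:**
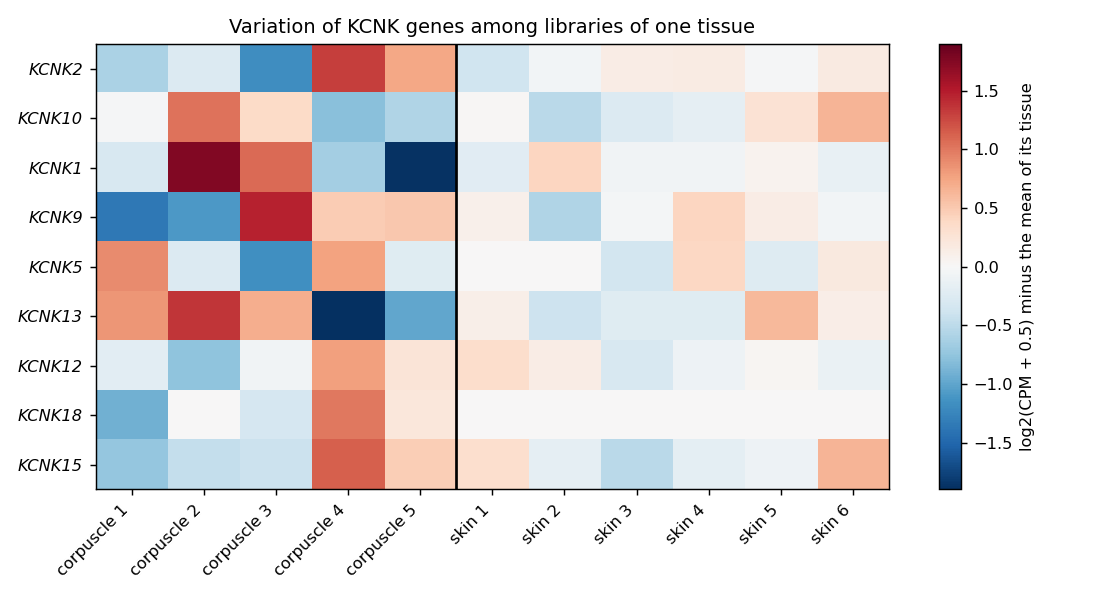
Deviation of each KCNK gene in each library from the mean of its tissue, in log2(CPM + 0.5), red above and blue below. KCNK2 is at 1.32 and 0.73 and KCNK13 at -1.90 and -0.99 in corpuscles 4 and 5.

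The FPKM of genes that belong to other organs gave a measure of low-level reads. Over 43 such genes, from liver, eye, pituitary and gonad, the median was 1.54 FPKM and the 95th percentile 5.49 FPKM in corpuscles, against 0.136 and 5.07 FPKM in skin. In corpuscles KCNK2 alone lay above the 95th percentile, with KCNK13 just under it, and KCNK5, KCNK9, KCNK12 and KCNK18 lay under the median. In skin all 8 lay under the 95th percentile, and of them KCNK12 and KCNK18 lay under the median. Some organ genes had many skin reads, such as APOA1 (86.1 to 232 CPM) and TEX11 (10.6 to 18.5 CPM). The 95th percentile in skin is therefore no bound on low-level reads, and lying under it does not place a KCNK gene at that level. Among these organ genes FGB, TTR and CPB2 had reads in every corpuscle library and 0 in every skin library, as KCNK18 did. Of the 33 such genes tested, 26 were higher and 3 lower in corpuscles, with a median log2 fold change of 3.15. Of these, 16 did not reach the filter's minimum in 5 skin libraries, so they were tested through their corpuscle level and had to be higher. The other 17 gave 10 higher and 3 lower, with a median log2 fold change of 1.41. How far low-level reads of this kind enter the KCNK values was not tested.

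Other potassium channel genes were also mostly higher in corpuscles. Of 50 tested, 32 were higher and 5 lower, against 33.0% and 23.5% of all genes. Of the 50, 10 did not reach the filter's minimum in 5 skin libraries and so were tested through their corpuscle level, and all 10 were among the 32 higher. The median log2 fold change was 2.02 for the 6 K2P genes tested, 1.77 for these 50 genes and 0.18 for all genes. For the 40 of these 50 that reached the minimum in at least 5 skin libraries it was 1.24, with 22 higher and 5 lower. For the 17 genes of unrelated organs that reached it, the median was 1.41, so a rise of this size was not particular to potassium channel genes. Voltage-gated channel genes gave 20 higher and 1 lower of 31, some of them tested through their corpuscle level. The largest differences among the voltage-gated genes named by rule were KCND2, of the A-type current (4.58 ± 0.52), and KCNB2, a delayed rectifier (3.65 ± 0.42), as log2 fold changes with SE. KCNQ1, a slowly activating channel, was the next, with 76.0 ± 67.5 CPM in corpuscles against 7.28 ± 1.35 CPM in skin.

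Inward rectifier genes gave 7 higher and 3 lower of 11. Calcium- or sodium-activated channel genes, listed together with KCNU1, gave 4 higher and 1 lower of 7. KCNJ6 and KCNJ5, subunits of G protein-gated channels, had log2 fold changes of 8.89 and 4.41, and KCNJ2 of 2.31. KCNJ6 averaged 0.052 CPM in skin, so it was tested through its corpuscle level. KCNJ15 (-3.02) and KCNJ8 (-2.48), the pore of a vascular channel gated by ATP, were lower. KCNU1 (3.01), the sodium-activated KCNT1 (2.43) and the small-conductance KCNN2 (1.68) were higher, and KCNN1 (-2.83) was lower. Per gene length in corpuscles, KCND2 was at 24.2 FPKM and KCNJ2 at 15.5 FPKM, above the mean of every K2P gene.

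**Figure D5:**
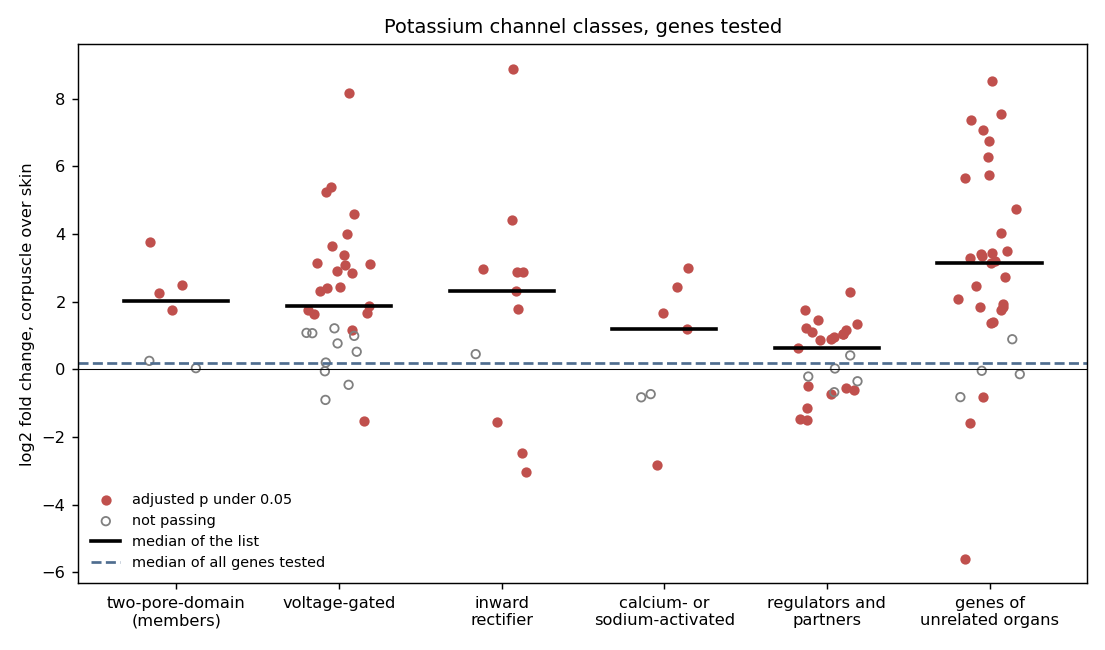
Log2 fold change, corpuscle over skin (y axis), of each gene tested in 6 lists; filled points passed at an adjusted p of 0.05, black bars are list medians and the dashed line is the median of all genes tested (0.18). The K2P genes lie between 0.03 and 3.75, inside the spread of the voltage-gated and inward rectifier genes. The median of the genes of unrelated organs (3.15) is raised by the filter, since 16 of these 33 genes were tested through their corpuscle level. The voltage-gated and inward rectifier lists hold such genes too. Among the 17 organ genes that did reach the filter's minimum in skin the median is 1.41.

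Of 25 genes tested for proteins known to bind or regulate K2P channels, 13 were higher and 7 lower, against 33.0% and 23.5% of all genes, with a median log2 fold change of 0.63. The split depended on the setting, with 13 higher and 3 lower under upper-quartile factors, 13 and 2 after thinning to the smallest library, and 12 and 2 at a minimum of 5 CPM. It went the other way in other settings, with 12 higher and 8 lower with limma-voom and 11 and 8 without corpuscles 4 and 5. Without skin 5 and 6 it was even, at 7 higher and 7 lower. Of calcineurin, the activator of KCNK18, the catalytic subunit PPP3CA was higher, with 249 ± 91.8 CPM in corpuscles against 117 ± 10.7 CPM in skin and a log2 fold change of 1.09 ± 0.22, and PPP3CB was lower (-0.72 ± 0.24, adjusted p = 0.018). PRKACB, a catalytic subunit of protein kinase A, which inhibits TREK channels, was lower (-1.50 ± 0.27), as was the phospholipase PLCB4 (-1.46 ± 0.27). The count fell to 5 in a test against a fold of 2.

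The genes most like the 3 K2P genes of highest corpuscle FPKM were found by Pearson's r of log2 CPM over all 11 libraries, which share the split by tissue and kit. For KCNK2 these were GYS2, MCEE and SDCBP2 (r = 0.987, 0.986 and 0.979). For KCNK13 they were PTPRJ, CD164L2 and SLC37A2 (r = 0.960, 0.960 and 0.959). For KCNK1 they were LOC101794469, C3H6orf120 and BMP6 (r = 0.975, 0.969 and 0.958), each at similar mean CPM in both tissues. With the mean of each tissue taken out, r for the genes so chosen ran from 0.938 to 0.977. GYS2 averaged 0.031 CPM in skin, so it was tested through its corpuscle level.

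The protein-coding neighbours of the 8 genes were read from the RefSeq table of the Pekin duck (assembly IASCAAS_PekinDuck_T2T), and 14 of 16 were in the count table. Of these, 8 were higher and 2 lower in corpuscles, against 33.0% and 23.5% of all genes. Chosen after their values were seen, SPATA7 and GPR65 on the sides of KCNK10 had log2 fold changes of -0.02 (adjusted p = 0.967) and 4.36 (adjusted p = 4.41e-05). The use of strand in counting is not given in the sources used here, so reads of genes that overlap on opposite strands could not be told apart.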

How the data were processed

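The authors deposited raw counts for each gene. Tools named in the submitters' processing notes include STAR 2.7.7a, Trimmomatic 0.39 and featureCounts of Subread 2.0.1, with edgeR 3.38.4; which build and annotation they used is not given in the sources used here. Also deposited were a normalized signal (each count divided by 1 factor per library) and FPKM (that signal per kilobase). The authors' deposited table also holds a log2 fold change of skin over corpuscle with its p-value.

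The counts entered a fit in edgeR 4.0.16 under R 4.3.3 (genes kept by filterByExpr with a minimum count of 10, TMM factors, robust quasi-likelihood fit of tissue over all 11 libraries, Benjamini-Hochberg threshold 0.05). Each SE is the log2 fold change over the root of its F statistic. The fit was tested on simulated data. Exact permutation tests used scipy 1.17.1 and figures matplotlib 3.10.9. Alternatives were limma-voom (limma 3.58.1), DESeq2 1.42.0, other scalings and filters, a replicate block, thinning, leaving out libraries and a test for changes over 2-fold.

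Genes and lists were chosen with earlier results of these data known. Named besides the KCNK genes are up to 3 genes of each list per direction with at least 10 CPM and no overlap between tissues, and the 3 genes most like each of the 3 highest K2P genes. A few genes picked by this rule are left out here. Replicates of a tissue differed by more than sampling noise, with a chi-square per degree of freedom of at least 11.8 in skin and 96.5 in corpuscles.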

Additional observations from a re-analysis of the deposited data

How the results depend on the processing

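KCNK2, KCNK9 and KCNK10 kept their direction and passed under every alternative that tested them, with log2 fold changes of 1.34 to 2.59, 1.99 to 2.87 and 3.40 to 4.13. KCNK13 stayed higher (1.38 to 2.33) and passed in 21 of 23. Of the 8 genes, 3 to 6 were called. KCNK1 turned to -0.31 with limma-voom and to -0.29 with the replicate block, and ran from -0.37 to 0.52 when a library was left out. KCNK5 turned to -0.040 with no filter, -0.16 with limma-voom, -0.10 with the block, -0.090 without corpuscles 4 and 5 and -0.12 without skin 5 and 6, and ran from -0.26 to 0.25 when a library was left out. Neither passed under any alternative. A test against a fold of 2 called 4571 genes in all, against 8263, and 5 regulator genes, against 20. A minimum of 5 CPM left 26 other potassium channel genes to test, of which 21 were called, against 37 of 50. The KCNK2 to KCNK10 difference widened to -2.79 without corpuscles 4 and 5, the corpuscles of highest ratio. The KCNK13 to KCNK12 difference turned to 0.13 without them. When a single library was left out the differences ran from -2.17 to -1.24 and from -1.97 to -0.58. The median log2 fold change of all genes, 0.18, was 0.33 with upper-quartile factors, 0.34 with no filter, 0.45 with DESeq2, -0.05 with limma-voom and -0.06 with the replicate block.

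Same-numbered libraries of the tissues were weakly correlated in their deviations from the tissue mean (-0.164 to 0.151). So few correlations cannot settle whether the replicate numbers pair the samples, and the labels do not say. With the replicate block, which drops skin 6, 7005 genes, 3 of the 8 KCNK genes and 13 regulator genes were called, KCNK13 had 1.42 (adjusted p = 0.0769), and the paired differences of the 2 ratios were -1.76 and -1.24, where 5 pairs cannot give a p under 0.0625. Depth limits KCNK12 and KCNK18, with 50 and 48 corpuscle reads in all.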
